A study of Mus musculus with 8 samples.

Results

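The 10 genes described here encode proteins that shape the mitochondrial network and remove damaged mitochondria: *Opa1*, *Mfn1* and *Mfn2* for fusion, *Dnm1l*, *Fis1*, *Mff*, *Mief1* and *Mief2* for fission, and *Pink1* and *Bnip3* for mitophagy. They were chosen by name, and every non-control probe whose listed accession is a RefSeq transcript of one of them was taken. Of the 22911 genes that could be named on the array, these 10 held 17 of its 56605 probes, with 2 probes for 7 of the genes and 1 probe for *Dnm1l*, *Mief2* and *Bnip3*. The RNA came from quadriceps muscle of 6 male mice aged 17 months, 3 Grsf1cKO and 3 WT. In the Grsf1cKO mice, *Grsf1* alleles with floxed exons 4 and 5 were deleted by Cre expressed from *Myf5*, a gene of the myogenic lineage that is also active in some cells outside muscle, after the LacZ and Neo cassettes of the original allele had been removed with the FLPo recombinase. The WT mice served as controls, and the sources used here do not say whether they carried the floxed allele or Cre, or whether they were littermates. GRSF1 is an RNA-binding protein of mitochondria, and the comparison asks how its loss in muscle goes with the levels of nuclear mRNAs for mitochondrial dynamics.

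Mitochondria in muscle fibers continually fuse and divide. MFN1 and MFN2 are GTPases that tether and fuse the outer membranes, and OPA1 is the GTPase that fuses the inner membranes and keeps the cristae in shape. Division is carried out by the dynamin-related GTPase encoded by *Dnm1l*, which assembles on the outer membrane where MFF, FIS1, MIEF1 and MIEF2 serve as its adaptors. PINK1 is a kinase that builds up on mitochondria that have lost their membrane potential and starts their marking with ubiquitin, whereas BNIP3 sits in the outer membrane and binds the autophagosome directly. Much of this machinery is also controlled by protein cleavage, phosphorylation and ubiquitination, which an mRNA array does not measure.

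Promoter sequences are shown first, so that the regulatory letters in front of genes of the same machinery can be set side by side. The 250 bases before each RefSeq start on GRCm38.p6 were searched on both strands, which gave 15 windows for the 10 genes. The GC box GGGCGG, a binding sequence of the SP1 family, was found in 13 of the 15 windows and in at least 1 window of all 10 genes, while it was present in 32.7% of all 32851 windows and for 35.4% of all 27025 genes. The ETS-type sequence CCGGAAGT, which factors of the ETS family including the nuclear respiratory factor GABP can bind, was found for *Mfn1*, *Fis1* and *Mief1*, against 3.23% of all genes. The core palindrome bound by the nuclear respiratory factor NRF1, whose letters are the capitals of the *Opa1* site shown here, was found for *Opa1* alone among the 10, against 0.877% of all genes. The sites are given below with 10 bases on either side, written in the direction of transcription and with the matched letters in capitals.
Mfn1, ETS, chr3:32529428-32529455, plus strand: atccgaagcgCCGGAAGTagccgcccct
Fis1, ETS, chr5:136953247-136953274, plus strand: gaggcaccacCCGGAAGTtcaggcttcc
Mief1, ETS, chr15:80234005-80234032, plus strand: gaggggccgaCCGGAAGTgcttccgcct
Opa1, NRF1, chr16:29579265-29579294, plus strand: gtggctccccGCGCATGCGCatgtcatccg

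The sequence CACGTG, an E-box, was found for *Bnip3* and *Mief2*, against 6.86% of all genes. It contains ACGTG, the core of the hypoxia response element, on both strands, so these matches overlap. That core was found in addition for *Mfn2*, and in 18.5% of all genes. These sites are shown because BNIP3 is a well-known target of hypoxic induction.
Bnip3, E-box, chr7:138909599-138909624, minus strand: gcacgcgccgCACGTGccacacgctc
Mief2, E-box, chr11:60728364-60728389, plus strand: ccgttttgagCACGTGtgcgcaggag
Mfn2, hypoxia response core, chr4:147904686-147904710, minus strand: ccggctagtgACGTGttgggtgtga

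The median GC content was 57.2% in the 15 windows, with a range from 46.0% to 72.4%, and 52.4% in all windows. These matches describe letters in the reference sequence, since no binding was measured in these mice.

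The arrays were Agilent 1-color arrays, hybridized with Cy3-labeled RNA. A signal is given here on the log2 scale after quantile normalization of the 8 arrays, and each mouse is 1 replicate. Mouse 1 of each genotype had been hybridized a second time, and its arrays were averaged. The repeat array of Grsf1cKO 1 stood apart, with 88.9% of spots well above background against 66.3% to 73.1% on the other 7 arrays. The *Grsf1* probe, which checks the labels, had log2 signals of 12.16, 12.03 and 12.09 in the Grsf1cKO mice and of 14.31, 14.26 and 14.28 in the WT mice, a 4.57-fold higher signal in WT (limma, adjusted *p* = 0.00275). With the replicate number fitted as a block, its log2 difference was still -2.19, but the limma adjusted *p* was 0.203, which does not pass the 0.2 used here. The sample labels name the vastus intermedius and the paper the rectus femoris, both muscles of the quadriceps. All 10 muscle fiber markers were well above background in all 6 mice. Whole muscle also holds other cells, and the summed signal of 6 macrophage markers, relative to the WT mean, was 0.939, 0.967 and 1.70 in the Grsf1cKO mice and 1.01, 1.08 and 0.906 in the WT mice. WT 1 stood apart in the summed signal of the 2 brown adipocyte markers, at 2.11 against 0.361 to 0.926 in the other mice. The log2 signal of *Myh7*, the slow fiber myosin, was 11.36, 9.47 and 9.40 in the Grsf1cKO mice and 9.28, 11.39 and 11.33 in the WT mice, so that both genotypes held high and low mice. The part of these markers in the results was not tested. Of the marker genes of all cell types, only *Vcam1*, listed for satellite cells, had an unadjusted *p* under 0.05, with log2 signals of 10.03, 10.30 and 10.49 in Grsf1cKO muscle and of 9.85, 9.93 and 9.97 in WT muscle, a difference of 0.36 (limma adjusted *p* = 0.994). Among all probes tested, 4.24% had an unadjusted *p* under 0.05 by limma. In RNA of whole muscle, fewer cells of a type and less RNA per cell cannot be told apart.

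All 17 probes were well above background in all 6 mice, so each gene was measured in both genotypes and none was lost to the filter on dim probes. The criteria for a called difference were a 1.5-fold change, a false discovery rate under 0.2 and an unadjusted *p* under 0.01. None of the 17 met them, while 3 of the 38888 probes tested did (0.00771%), 1 of these higher and 2 lower in Grsf1cKO muscle. At an unadjusted *p* under 0.05, 0 of the 17 passed in either direction, against 4.24% of all probes in either direction and 2.94% in the lower direction. The lowest adjusted *p* among the 17 was 0.994. The mean was lower in Grsf1cKO muscle for 10 of the 17 probes, where 57.4% of all probes had a lower mean. The median difference, Grsf1cKO minus WT, was -0.01 over the 17 probes and -0.03 over all probes tested. With the brighter or only probe of each gene, the median over the 10 genes was -0.05, and 7 of the 10 had a lower mean. The values of the genotypes were fully separated for 1 of the 17 probes, the dimmer probe of *Opa1*, and for 9.36% of all probes. With 3 mice against 3, the exact 2-sided permutation test cannot go below *p* = 0.1.

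**Figure D1:**
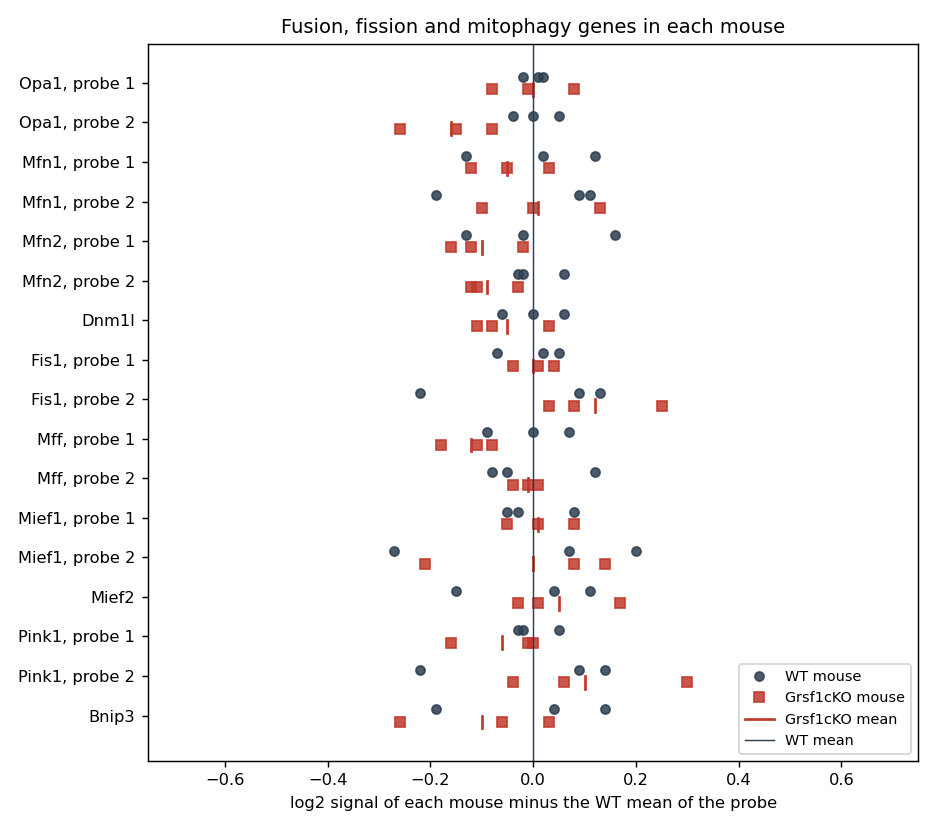
Log2 signal of each mouse for the 17 probes, given relative to the WT mean of the same probe (0 on the x axis). Circles are WT mice, squares are Grsf1cKO mice and short bars are Grsf1cKO means. The genotypes overlap in 16 of the 17 probes, and the dimmer *Opa1* probe (probe 2) is the one where they do not.

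The fusion genes are described first. *Opa1*, the inner membrane GTPase, was measured by 2 probes. The brighter probe had log2 signals of 14.45, 14.54 and 14.38 in Grsf1cKO muscle and of 14.48, 14.47 and 14.44 in WT muscle. The 3 WT values lay within the range of the 3 Grsf1cKO values, and the difference was -0.01 (SE 0.0840, 95% interval -0.21 to 0.20, limma adjusted *p* = 0.998). The dimmer probe, listed under another *Opa1* transcript, had values of 11.57, 11.68 and 11.75 in Grsf1cKO muscle and of 11.88, 11.79 and 11.83 in WT muscle. Here every Grsf1cKO mouse lay below every WT mouse, with means of 11.67 ± 0.09 and 11.83 ± 0.05 (SD, n = 3 each). Its difference of -0.16 (SE 0.0879, 0.893-fold) did not pass the test (limma *p* = 0.113, adjusted *p* = 0.994), and the exact permutation *p* was 0.1, the smallest that is possible. The value was also -0.16 with the first arrays alone and -0.19 within slide 2. All Grsf1cKO arrays were on slide 2, whereas slide 1 held WT arrays only, so that the slide was partly confounded with genotype and the value within slide 2 rests on the 2 WT mice that have an array there. The 2 arrays of a mouse were close, with 11.57 and 11.58 in Grsf1cKO 1 and with 11.86 and 11.89 in WT 1. Thus the separation was seen with 1 probe of *Opa1* and not with the other, and the 2 probes differed by 0.16 in their estimates.

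*Mfn1*, a mitofusin of the outer membrane, had log2 signals of 14.59, 14.67 and 14.52 in Grsf1cKO muscle and of 14.51, 14.76 and 14.66 in WT muscle with its brighter probe. The WT mice spanned the whole range of the Grsf1cKO mice, and the difference was -0.05 (SE 0.102, interval -0.30 to 0.20, adjusted *p* = 0.997). The dimmer probe gave 8.61, 8.74 and 8.51 in Grsf1cKO muscle and 8.42, 8.70 and 8.72 in WT muscle, a difference of 0.01 (SE 0.119, adjusted *p* = 0.998). The 2 *Mfn1* probes thus gave estimates of opposite sign, both smaller than their SE. Without WT 1, both were negative, at -0.12 for the brighter and -0.09 for the dimmer probe. Without WT 2, the brighter probe was at 0.01.

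For *Mfn2*, the other mitofusin, which also tethers mitochondria to the endoplasmic reticulum, the brighter probe had signals of 15.22, 15.12 and 15.08 in Grsf1cKO muscle and of 15.40, 15.22 and 15.11 in WT muscle. The lowest WT mouse and the 2 lower Grsf1cKO mice lay close together, and WT 1 was the highest of the 6 mice. The difference was -0.10 (SE 0.106, interval -0.36 to 0.16, adjusted *p* = 0.994). The dimmer probe gave 14.00, 13.92 and 13.91 against 14.00, 14.09 and 14.01, a difference of -0.09 (SE 0.0814, adjusted *p* = 0.994, exact permutation *p* = 0.2). Both probes of *Mfn2* gave a like estimate, about as large as its SE, but that of the brighter probe was -0.02 without WT 1 and -0.17 without WT 3. The brighter probes of all 3 fusion genes had a lower mean in Grsf1cKO muscle, from -0.10 to -0.01, but with the deposited *z*-scores, which were not quantile normalized, the sign turned for *Opa1* (0.04) and *Mfn1* (0.01).

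Among the fission genes, *Dnm1l*, which encodes the GTPase that constricts the organelle, had log2 signals of 13.72, 13.58 and 13.61 in Grsf1cKO muscle and of 13.75, 13.63 and 13.69 in WT muscle. Grsf1cKO 1 was within the WT range and the other two mice lay just below it. The difference was -0.05 (SE 0.0872, interval -0.27 to 0.16, adjusted *p* = 0.996, exact permutation *p* = 0.4). It was -0.10 without Grsf1cKO 1, and -0.02 without Grsf1cKO 2 or without WT 1.

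*Fis1* encodes a small protein anchored in the outer membrane that binds the GTPase. Its brighter probe had signals of 16.78, 16.81 and 16.73 in Grsf1cKO muscle and of 16.70, 16.82 and 16.79 in WT muscle. All 3 Grsf1cKO values lay between the lowest and the highest WT value, and the difference was 0.00 (SE 0.0827, interval -0.20 to 0.21, adjusted *p* = 0.998). The dimmer probe gave 13.94, 14.11 and 13.89 against 13.64, 13.99 and 13.95, a difference of 0.12 (SE 0.129, interval -0.20 to 0.43, adjusted *p* = 0.994). On this probe WT 1 was below the other 5 mice, and without WT 1 the difference was 0.01.

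*Mff* encodes the adaptor that recruits most of the GTPase to mitochondria in mammalian cells. Its brighter probe had signals of 15.38, 15.41 and 15.31 in Grsf1cKO muscle and of 15.56, 15.49 and 15.40 in WT muscle. WT 1 and WT 2 were above all Grsf1cKO mice, but WT 3 was not, and the difference was -0.12 (SE 0.0872, interval -0.33 to 0.10, adjusted *p* = 0.994, exact permutation *p* = 0.2). The dimmer probe gave 14.03, 14.08 and 14.06 against 14.19, 14.02 and 13.99. Its difference was -0.01 (SE 0.0911, adjusted *p* = 0.998), so that the estimate of the brighter probe was not seen with the other. With the deposited *z*-scores, the brighter *Mff* probe was at -0.03 and the dimmer one at 0.03.

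*Mief1* and *Mief2* encode paralogous adaptors of the outer membrane that bind the GTPase and can hold it in an inactive state. The brighter probe of *Mief1* had signals of 12.43, 12.36 and 12.30 in Grsf1cKO muscle and of 12.30, 12.32 and 12.43 in WT muscle, with the same range in both genotypes and a difference of 0.01 (SE 0.0869, adjusted *p* = 0.998). The other *Mief1* probe was the dimmest of the 17, at 5.4, 5.69 and 5.75 against 5.34, 5.68 and 5.81. Its difference was 0.00 (SE 0.161, interval -0.39 to 0.40, adjusted *p* = 0.999). This dim probe read lower on both repeat arrays, at 5.09 after 5.72 for Grsf1cKO 1 and at 5.06 after 5.62 for WT 1, and scaling to the 75th percentile gave 0.22 in place of 0.00. *Mief2* had signals of 12.56, 12.76 and 12.60 in Grsf1cKO muscle and of 12.44, 12.63 and 12.70 in WT muscle. WT 1 was the lowest and Grsf1cKO 2 the highest of the 6 mice, and the difference was 0.05 (SE 0.109, interval -0.22 to 0.32, adjusted *p* = 0.997). It was -0.03 without WT 1, -0.01 without Grsf1cKO 2 and 0.11 without WT 3. Of the 5 fission genes, 2 had a lower mean in Grsf1cKO muscle with the brighter probe, *Dnm1l* and *Mff*, and the differences of all 5 ran from -0.12 to 0.05. Without WT 1, all 5 had a lower mean, from -0.08 to -0.01. With the deposited *z*-scores, the 5 ran from -0.04 to 0.11, with *Fis1* at 0.11 and the sign of *Mief1* turned, to -0.02.

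For mitophagy, the brighter probe of *Pink1* had log2 signals of 16.89, 16.90 and 16.74 in Grsf1cKO muscle and of 16.95, 16.87 and 16.88 in WT muscle. Grsf1cKO 3 was the lowest, whereas the other 2 Grsf1cKO mice lay within the WT range. The difference was -0.06 (SE 0.0880, interval -0.27 to 0.16, adjusted *p* = 0.995). The dimmer *Pink1* probe gave 12.37, 12.61 and 12.27 against 12.09, 12.45 and 12.40, a difference of 0.10 (SE 0.144, adjusted *p* = 0.995). The 2 probes therefore had opposite signs, and neither estimate was larger than its SE. That of the dimmer probe was -0.01 without WT 1 and 0.00 without Grsf1cKO 2.

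*Bnip3* had signals of 16.59, 16.50 and 16.30 in Grsf1cKO muscle and of 16.60, 16.70 and 16.37 in WT muscle. The third mouse of each genotype was the lowest of its group, and the spread of *Bnip3* among mice was larger than its difference of -0.09 (SE 0.130, interval -0.41 to 0.22, adjusted *p* = 0.994). Relative to the WT mean, the summed signal of 3 erythroid markers was 0.944, 1.11 and 0.834 in the Grsf1cKO mice and 1.08, 1.21 and 0.705 in the WT mice, and that of 6 adipocyte markers was 0.859, 1.12 and 0.809 against 1.20, 1.11 and 0.684. Both sums were also lowest in the third mouse of each genotype, and their part in the *Bnip3* values was not tested. Both mitophagy genes had a lower mean in Grsf1cKO muscle with the brighter probe, but the sign turned for both with the deposited *z*-scores, to 0.06 for *Pink1* and 0.01 for *Bnip3*.

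**Figure D2:**
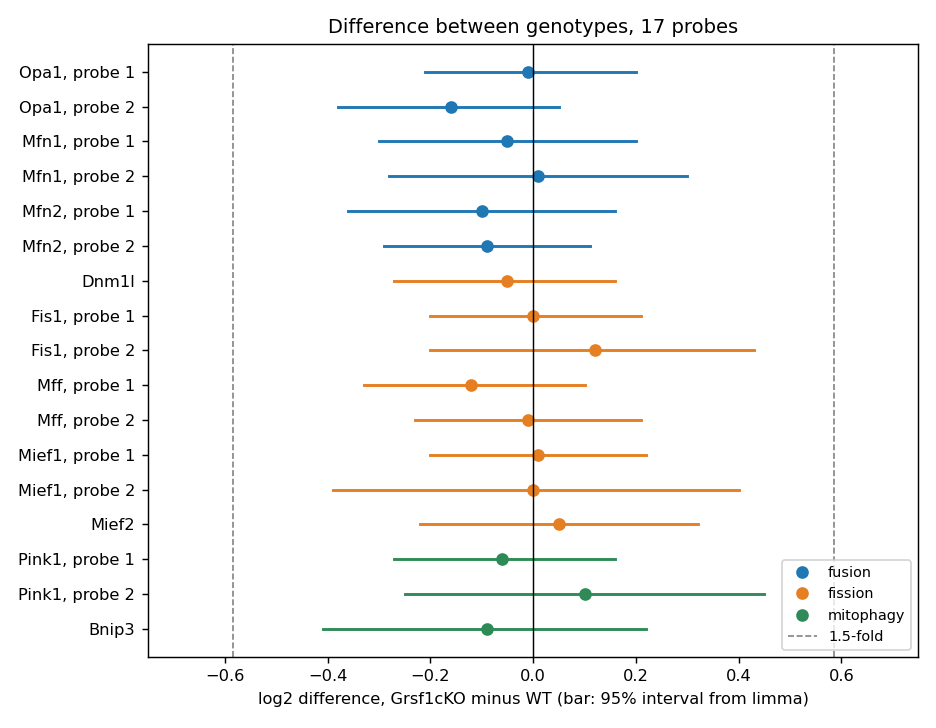
Log2 difference, Grsf1cKO minus WT, of each of the 17 probes (points) with its 95% interval from limma (horizontal bars), colored by role. The dashed lines mark a 1.5-fold difference, and all 17 intervals lie between 0.753-fold and 1.37-fold, inside these lines.

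The intervals of the main fit describe how far the normalized signals of these probes could differ. Across the 17 probes, the 95% intervals ran from 0.753-fold to 1.37-fold of WT, so that a 1.5-fold difference lay outside each of them. Each interval covers 1 probe, not the 17 jointly, and takes no account of the slide or of other ways to normalize. The median SD among mice of a genotype was 0.0787 for the 17 probes, and 0.178 for the 38859 tested probes with an SD in both genotypes. The largest difference among the 17, -0.16, was exceeded in size by 33.4% of all tested probes. The median size of a difference was 0.05 for the 17 probes and 0.10 for all tested probes. Most of the 17 probes were brighter than the median spot of the arrays, and these comparisons were not matched for signal. Whether the smaller spread and differences go with brightness was not tested.

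The spread among mice was shared in part. Of the brighter or only probes of the 10 genes, 6 had their lowest signal in Grsf1cKO 3 and 3 in WT 1, and the highest signal was in WT 1 for 4 genes and in WT 2 for 3. Relative to the mean of all mice, the average of the 10 probes was 0.01, 0.02 and -0.09 in the Grsf1cKO mice and 0.02, 0.04 and 0.00 in the WT mice. Grsf1cKO 3 was thus the lowest of the 6 mice, and it also had the highest summed macrophage signal given above, whose part in the result was not tested. Without Grsf1cKO 3, the differences of *Bnip3* and *Pink1* (brighter probe) were both -0.01. *Bnip3* moved the other way when other mice were left out, to -0.19 without WT 3 and -0.16 without Grsf1cKO 1. Outside the lists used here, the genes whose signal over the 6 mice was most like this average were *Tbx15* (Pearson r = 0.993), *Pramel15* (0.988) and *Rnf14* (0.988), out of 16875 genes compared, of which 203 had an r over 0.9. With only 6 mice, such values describe these mice and no test was made.

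Signals were also compared within a mouse, with the brighter or only probe of each gene, because fusion and fission oppose each other. A difference of mean mRNA signals is not itself a measure of the balance between them. *Mief1* and *Mief2* count here as fission genes, although their proteins can also hold the GTPase in an inactive state. The mean of the 3 fusion genes minus that of the 5 fission genes, set to 0 at the WT mean, was -0.03, -0.01 and -0.05 in Grsf1cKO muscle and 0.04, 0.03 and -0.07 in WT muscle. The means were -0.03 ± 0.02 and 0.00 ± 0.06 (SD, n = 3 each), and the genotypes overlapped. Partners within a role gave a like result: *Mfn2* minus *Mfn1* differed by -0.05 (*p* = 0.8), *Mief1* minus *Mief2* by -0.04 (*p* = 0.7) and *Pink1* minus *Bnip3* by 0.04 (*p* = 0.8), by the same exact permutation test. For *Opa1* minus *Dnm1l*, the inner membrane fusion GTPase against the fission GTPase, the difference was 0.05 (exact permutation *p* = 0.6). The dimmer probes were not used in these comparisons. Among them, that of *Opa1* had a difference between genotypes of -0.16 and that of *Pink1* of 0.10, against -0.01 and -0.06 with the brighter probes. With Benjamini-Hochberg adjustment over these 4 pairs of genes, the exact permutation test gave an adjusted *p* of 0.8 for each.

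The other genes of these pathways were described in 7 lists, which held 87 different genes with a probe, each represented by its brightest probe. All 87 were tested, 0 met the criteria and 0 had an unadjusted *p* under 0.05 in either direction (limma, lowest adjusted *p* = 0.994). Their median difference was -0.02, against -0.05 for the 10 genes by the same measure and -0.03 for all probes. Of the 87, 49 had a lower mean in Grsf1cKO muscle, where 57.4% of all probes did. The list of fusion and inner membrane processing, which holds proteases that cleave OPA1, such as *Oma1* and *Yme1l1*, and outer membrane proteins such as *Pld6*, had a median of -0.05 over 12 genes (range -0.24 to 0.01), with a lower mean for 11 of the 12. The mean was lower for 6 of 11 genes of the MICOS list, 7 of 13 fission partners, 6 of 13 genes of the PINK1 pathway, 5 of 8 mitophagy receptors, 10 of 23 core autophagy genes and 5 of 8 genes of mitochondrial content. The list of MICOS, the complex that holds the cristae junctions, and of partner genes such as *Samm50* and *Mtx2* had a median of -0.01 over 11 genes (range -0.15 to 0.10). The fission partners had a median of -0.05 over 13 genes (range -0.22 to 0.22).

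Receptors that read ubiquitin marks on mitochondria and the deubiquitinases that remove them were among the list of the PINK1 pathway, with a median of 0.00 over 13 genes (range -0.13 to 0.39). *Sqstm1*, the cargo receptor p62, had signals of 17.54, 17.41 and 17.36 against 17.48, 17.48 and 17.35, a difference of 0.00. The other mitophagy receptors had a median of -0.04 over 8 genes (range -0.22 to 0.08), in which *Bnip3l*, the paralog of *Bnip3*, was at -0.05 (SE 0.113) and *Fundc1*, a receptor of hypoxic mitophagy, at -0.04 (SE 0.0969). The core autophagy genes had a median of 0.01 over 23 genes (range -0.17 to 0.14). In the list named for mitochondrial content, the mRNAs of 8 genes such as *Cs* and *Vdac1* had a median of -0.03 (range -0.20 to 0.04). Mitochondrial content itself was not measured here.

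**Figure D3:**
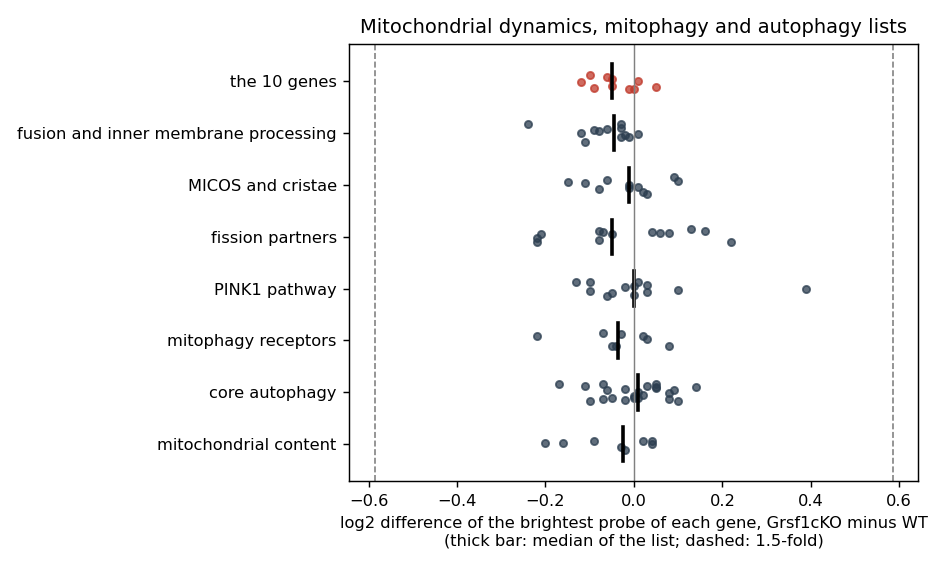
Log2 difference, Grsf1cKO minus WT, of the brightest probe of each gene (points, spread vertically at random for visibility) in the 10 genes and the 7 other lists. Thick bars are the medians, from -0.05 to 0.01, and dashed lines mark 1.5-fold, which no gene shown passes.

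The genotypes did not overlap for 7 of these 87 genes, a share below the 9.36% of all probes: *Yme1l1*, *Micos10*, *Mtfp1*, *Akap1*, *Becn1*, *Atg5* and *Rb1cc1*, all with a lower mean in Grsf1cKO muscle. The 9.36% holds for either direction, and the share for the lower direction alone was not computed. Of all 1648 probes with an unadjusted *p* under 0.05 by limma, 1143 were lower in Grsf1cKO muscle. None of the 7 genes had an unadjusted *p* under 0.05, and these genes, like *Sqstm1*, *Bnip3l* and *Fundc1*, are named after their values were seen. *Mtfp1*, which encodes an inner membrane protein that promotes fission, had signals of 14.77, 14.75 and 14.65 in Grsf1cKO muscle and of 15.07, 14.86 and 14.89 in WT muscle, a difference of -0.22 (SE 0.0967, limma adjusted *p* = 0.994). *Akap1*, an outer membrane anchor of protein kinase A, which phosphorylates the fission GTPase, differed by -0.22 as well (SE 0.101, limma adjusted *p* = 0.994). The other 5 differed by -0.17 (*Atg5*), -0.12 (*Yme1l1*), -0.11 (*Rb1cc1*), -0.06 (*Micos10*) and -0.06 (*Becn1*).

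The differences of the 10 genes were computed again under 20 other settings of the normalization, background, arrays, slides, mice and test. No probe of the 10 genes met the criteria for a called difference under any of them, and no difference was larger than 0.22 in size. With the *z*-test that the methods of the study name, used here with the 1.5-fold criterion in place of their *z*-ratio, 3 of the 17 probes had an unadjusted *p* under 0.05, all 3 lower in Grsf1cKO muscle, where 10.8% of all probes passed. These were the dimmer probe of *Opa1* (adjusted *p* = 0.194), the dimmer probe of *Mfn2* (adjusted *p* = 0.365) and the brighter probe of *Mff* (adjusted *p* = 0.366). The first of these had an unadjusted *p* under 0.01 and a false discovery rate under 0.2, and its fold change, 0.893, was within the 1.5-fold used here.

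**Figure D4:**
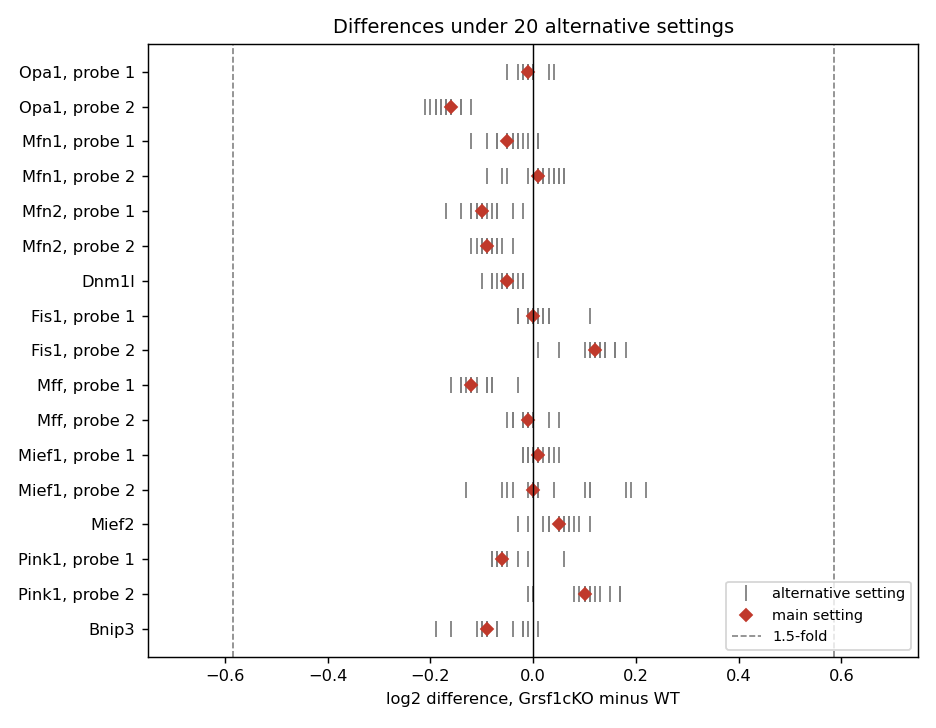
Log2 difference, Grsf1cKO minus WT, of the 17 probes under the main setting (diamonds) and 20 alternative settings (vertical ticks). No tick is farther from 0 than 0.22, and the dashed lines mark 1.5-fold.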

How the data were processed

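Muscle RNA of 6 mice was measured on 8 Agilent 1-color arrays. The authors deposited the intensity of each spot on a linear scale, from Agilent Feature Extraction (version 12.0.3.1, array design on mm9), and a *z*-score of the log2 intensity for each spot and array. The deposited score equaled, within 0.005, the log2 processed signal centred on the mean of its array and divided by the SD, with array medians from -0.24 to -0.16 and 25th percentiles from -0.92 to -0.71, so that it was not quantile normalized. The authors also deposited flags, including whether a spot was well above background. The processed signal, already corrected for background, was used. Control spots were dropped, and a spot that the software marked as non-uniform or as an outlier of its population had no value. Quantile normalization was applied across the 8 arrays, followed by log2 transformation and by averaging first within a probe and then within a mouse. Testing needed a signal well above background in 3 or more of 6 mice, on every array of a mouse, and a value in 2 or more mice per genotype. The fit was made in limma 3.58.1 (R 4.3.3), where genotype was the sole term, and Benjamini-Hochberg adjustment was made over all probes tested. Single values were compared by exact permutation of the mice, 2-sided. Precision is limited by the 3 mice per genotype.

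Of the 56605 probes, 32994 had 1 gene symbol by RefSeq accession. The brightest probe of a gene over the 6 mice represents it in lists. From these lists, 1 gene was left out and is not reported here. Every probe of the 10 genes is named, and of the pathway lists those genes with an unadjusted *p* under 0.05 and no overlap, apart from those said to be chosen after their values were seen. The members, lists and tests were chosen with earlier results of these data known. Promoter sequences are from RefSeq (GRCm38.p6), in which all 10 genes matched by symbol. The alternatives are 75th percentile scaling, normexp background correction (offset 50), the deposited *z*-scores rescaled to log2 units, other detection filters, other uses of the repeat arrays, the slide (2 arrays on slide 1 and 6 on slide 2) as a block or slide 2 alone, an intensity trend, the replicate number as a block, the methods' *z*-test (without their *z*-ratio and mean *z* criteria) and each mouse left out. The scripts were tested on simulated data. The filter by analysis of variance and the pathway software of the study were not used here.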

Additional observations from a re-analysis of the deposited data

How the results depend on the processing

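Over 20 alternatives, 0 probes of the 10 genes were called higher and 0 lower, and the median of the 17 probes lay between -0.05 and 0.01. The other detection filters, the intensity trend, the replicate number as a block and the methods' *z*-test left each difference as it was. Their signs could not change, but they are counted among the 340 values. Of these 340 values, 34 had the opposite sign, all of probes whose size was at most 0.10, with 8 of them without WT 1 and 7 with the deposited *z*-scores. With these scores, 4 values moved by more than 1 SD: the dimmer probe of *Mfn2* (-0.04), and the brighter probes of *Fis1* (0.11), *Mff* (-0.03) and *Pink1* (0.06). The lowest unadjusted *p* by limma was 0.0413, for the dimmer *Opa1* probe with 8 arrays and the mouse as a random block (adjusted *p* = 1). With the replicate block, that is the replicate number as a block, *Grsf1* was still at -2.19 but did not pass (adjusted *p* = 0.203), and the lowest adjusted *p* of the 10 genes was 0.836. That block changed no call of the 10 genes. The deviations of same-numbered mice correlated at 0.226, 0.1 and 0.0942, and the labels do not say that a number marks a shared litter or day. Over all probes, limma called 1 higher and 2 lower, the replicate block 1 higher and 0 lower, slide 2 alone 1 higher and 1 lower, and the methods' *z*-test, with the 1.5-fold criterion in place of their *z*-ratio, 81 higher and 240 lower. The second *Mief1* probe had the lowest signal of the 17 and an SE of 0.161.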
